A study of Rattus norvegicus with 12 samples.

Results

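The proteasome genes of rat liver were followed in RNA-seq libraries from 4 groups of Sprague Dawley rats, an outbred strain, with 3 libraries in each group. Control rats were on a normal diet. Control+SAMC rats had the normal diet with co-administered S-allylmercaptocysteine (SAMC), an organosulfur compound of aged garlic. HFD rats had a high fat diet, which is used to model fatty liver disease, and HFD+SAMC rats had that diet with SAMC. The labels used here give no dose, duration, age or sex, and whole liver was used, so fewer cells of a type and less RNA per cell cannot be told apart. The members were every protein-coding row whose symbol starts with Psma, Psmb, Psmc, Psmd or Psme and a digit. There were 44 of them among 40154 rows, 22764 of which are protein-coding.

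The proteasome is the protease that degrades proteins tagged with ubiquitin. Its 20S core is a barrel of alpha rings (Psma genes), which gate the entrance, and beta rings (Psmb genes), which hold the active sites. The 19S cap, built from ATPases (Psmc) and non-ATPase subunits (Psmd), recognises and unfolds tagged proteins, and the activators encoded by Psme genes open the core without ubiquitin. Interferon can replace the constitutive catalytic subunits with immunoproteasome subunits, which favour peptides for antigen presentation. The transcription factors Nrf1 (Nfe2l1) and Nrf2 (Nfe2l2) are known to raise proteasome genes under proteasome impairment and oxidative or electrophilic stress, and the series is about SAMC and Nrf2-driven enzymes. The comparisons below ask how the levels of these genes differed with the diet and with SAMC.

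Reads assigned to genes numbered 45680738 to 61937544 per library. Of the 44 members, 42 passed the filter on low counts, among 15916 genes tested. Psma8, a testis alpha subunit, had 15 reads over all 12 libraries and Psmb11, a thymus catalytic subunit, had 43. One member, Psmc3ip, matches by its symbol alone. It encodes a partner protein of Psmc3 that acts in recombination and is no subunit of the particle, and the gene, with 1090 reads, overlaps Mlx (49106 reads) by 46 bp. In the listed positions 12 members overlap another row, among them Psme1, by 8 bp with Emc9 (606 reads), and where the counting did not use strand such reads cannot be told apart. The members together took 0.244% to 0.397% of each library's reads. The mean share was 0.289% in Control, 0.331% in Control+SAMC, 0.373% in HFD and 0.350% in HFD+SAMC. In the same order, the mean factors that scale for composition were 0.888, 0.973, 1.09 and 1.07. The fold changes below are after that scaling. Albumin took 7.32% to 21.8%, so the liver label held, and skeletal muscle transcripts were present in HFD+SAMC replicate 3 (Acta1 at 439.7 CPM, counts scaled to library depth and composition, against at most 0.135 in the other libraries). In 4 libraries (Control replicate 2, Control+SAMC replicate 1 and HFD replicates 2 and 3) the fibrinogen transcript Fga was at 3378 to 3822 CPM, against 8221 to 18523 in the other 8, so the medians and counts below that leaving them out moved by over 1.5 times or turned are also given without them.

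On the RPKM scale (reads scaled by gene length and library depth), which allows levels of different genes to be set side by side, the genes of the core and the cap lay between 19.7 and 143 RPKM. The 7 alpha ring genes that passed the filter lay between 28.5 RPKM for Psma3 and 121 for Psma7, as means over 12 libraries. Psma3 was listed with a length of 3166 bp, against 852 to 1174 bp for the other 6, and a longer listed length lowers the RPKM. The 4 structural beta genes Psmb1, Psmb2, Psmb3 and Psmb4 lay between 87.6 RPKM (Psmb2) and 143 (Psmb4). The 6 cap ATPases ran from 28.8 RPKM for Psmc6 to 94.0 for Psmc3. Psmc6 was listed at 2381 bp, against 1288 to 1626 bp for the other ATPases, and held 43976 reads beside 37843 for Psmc5. The 11 non-ATPase subunits ran from 19.7 RPKM for Psmd14, the deubiquitinase of the cap, to 77.4 for Psmd8. The cap assembly chaperones, which leave before the particle is complete, were at 24.2 RPKM for Psmd9, 16.8 for Psmd5 and 3.48 for Psmd10, of which Psmd9 was above Psmd14. Among all members the highest level was that of Psme1, at 152 RPKM, and the lowest were Psma8 at 0.0122 and Psmb11 at 0.0256.

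**Figure D1:**
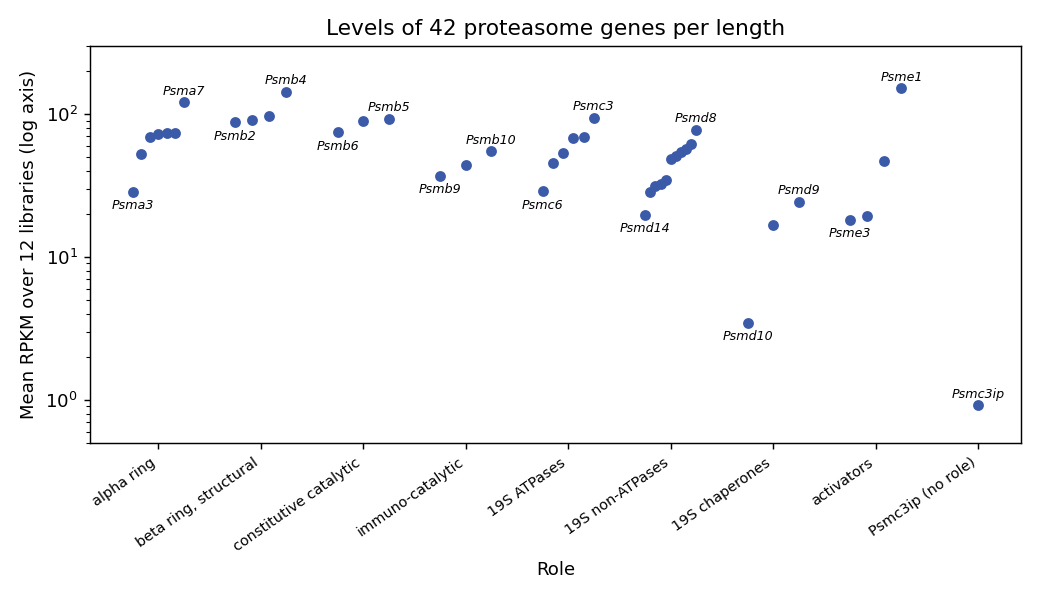
Mean RPKM over 12 libraries (log axis) of the 42 proteasome genes that passed the filter, grouped by role, with the highest and lowest gene of each role named. Psme1 is at 152 RPKM, Psmb4 at 143 and Psma7 at 121, and Psmd10 (3.48) and Psmc3ip (0.917) lie below the rest.

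No proteasome gene changed between groups at an adjusted p under 0.05 (edgeR quasi-likelihood test, Benjamini-Hochberg over 15916 genes) in any of the 7 comparisons. Over all genes tested, 0.145% were called for HFD against Control, 0.0503% for HFD+SAMC against HFD, 0.119% for Control+SAMC against Control and 0.0628% for HFD+SAMC against Control+SAMC. The diet effect averaged over SAMC called 0.421% of genes, the SAMC effect averaged over diet 0.22% and the interaction of diet and SAMC 0.145%. At these rates a count of 0 among 42 genes is near the background. The counts of members at an unadjusted p under 0.05 were 2 for HFD against Control (background 10.7%), 1 for HFD+SAMC against HFD (10.6%), 1 for Control+SAMC against Control (9.78%), 0 for HFD+SAMC against Control+SAMC (10.9%), 0 for the diet effect (13.6%), 1 for the SAMC effect (12.4%) and 2 for the interaction (7.41%). With DESeq2, 1 member passed an adjusted p of 0.05, Psme1 in the SAMC effect (background 2.74%), which is near the background for 42 genes. It called 0 members for the diet effect (background 3.38%), the interaction (0.804%), the high fat diet without SAMC (HFD against Control, 1.94%) and with it (HFD+SAMC against Control+SAMC, 1.71%), and SAMC on the normal diet (Control+SAMC against Control, 1.38%) and on the high fat diet (HFD+SAMC against HFD, 1.55%).

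The intervals say how large a change these libraries left possible. In HFD against Control, the 95% interval of the fold change lay within 1.5-fold either way for 37 of 42 members, and it did so for 37 in HFD+SAMC against HFD, 38 in Control+SAMC against Control and 38 in HFD+SAMC against Control+SAMC. All 42 lay within 2-fold in these 4 comparisons. In the diet and SAMC effects, each over 6 libraries against 6, all 42 lay within 1.5-fold. The interaction was less precise, with 21 of 42 within 1.5-fold and 40 within 2-fold, and outermost bounds of 0.445 (Psmc6) and 2.27 (Psmd10). The outermost bounds of the 7 comparisons belonged to Psmc6, Psmd9, Psmd10, Psmc3ip and Psme4. Among the members, the ratio of the highest to the lowest library had a median of 1.45 and ran from 1.2 for Psme1 to 2.00 for Psme4. It had a median of 1.81 for the 10588 genes tested that lay in the members' range of mean CPM. That range reaches down to Psmc3ip and Psmd10, at group means of 1.60 to 2.03 CPM, while the next lowest member, Psmd14, was at 26.1 to 33.1. The 2 medians are thus not at a like level of expression.

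Genes read out for Nrf2 moved in the same libraries. Among 12 such genes tested, those that rose in Control+SAMC against Control included Akr7a3 (an aldehyde reductase), Gstp1 (a glutathione transferase) and Abcc3 (an efflux pump), and the median log2 fold change of the 12 was 1.22. Akr7a3 was at 21.97, 20.5 and 17.3 CPM in the Control libraries and at 527, 186 and 306 in Control+SAMC, a log2 fold change of 4.09 ± 0.32 (SE; edgeR adjusted p = 0.000243). In that comparison the median of the 42 proteasome genes was 0.02, with 23 above 0 and 19 below, beside -0.01 over all genes tested. That median was 0.13 without Control replicate 1, 0.11 without Control+SAMC replicate 2, -0.04 without Control+SAMC replicate 1, -0.04 without Control replicate 2, -0.02 without Control+SAMC replicate 3, -0.01 without Control replicate 3 and -0.08 without the 4 libraries with low fibrinogen transcripts. In HFD+SAMC against HFD, 9 of the 12 were above 0 and 2 were called higher by edgeR (Gstp1 and Akr7a3). The median of the 12 was 0.31, and that of the proteasome genes was -0.09. The Nrf2 list was chosen with results of these data known, and its difference from the proteasome genes was not tested. The transcripts of the regulators were not called: in Control+SAMC against Control, Nfe2l1 had a log2 fold change of -0.29 ± 0.19 (SE) and Nfe2l2 of -0.21 ± 0.16.

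**Figure D2:**
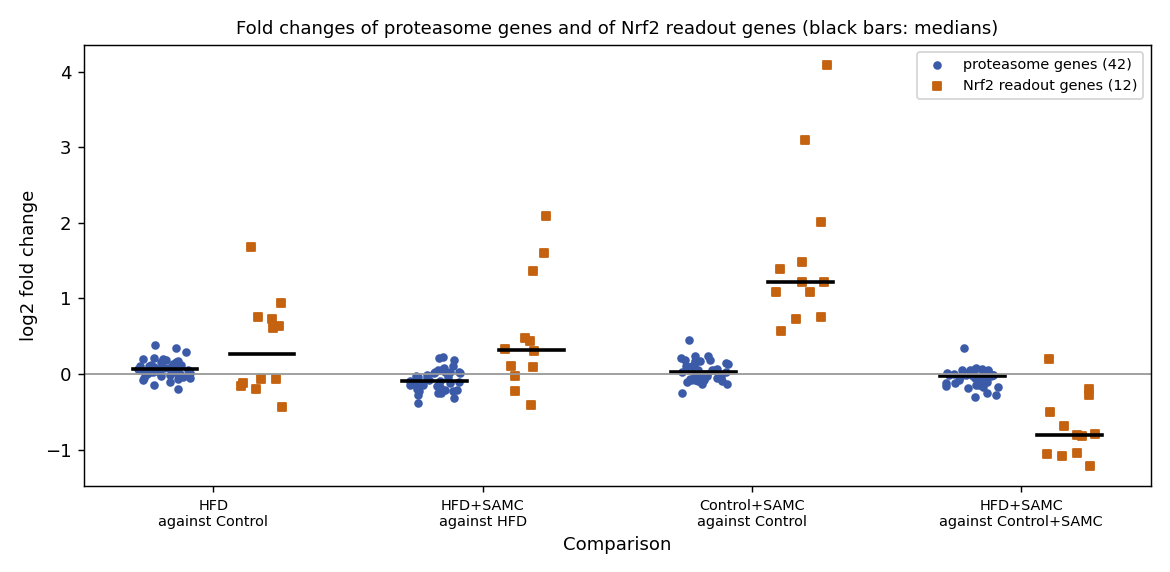
log2 fold change of each of 42 proteasome genes (circles) and 12 Nrf2 readout genes (squares) in 4 comparisons, with black bars for the medians. In Control+SAMC against Control the proteasome genes lie between -0.25 and 0.45 with a median of 0.02, and the Nrf2 readout genes between 0.57 and 4.09 with a median of 1.22.

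Among the activators, Psme1 was the member whose libraries followed SAMC. Psme1 encodes the alpha subunit of PA28, an interferon-inducible ring that docks on the core, and Psme2 its beta subunit. A row described as activator subunit 2-like held 705 reads beside 40407 for Psme2. Psme1 was at 144.4, 137.9 and 136.5 CPM in the Control libraries and at 158.3, 159.0 and 158.4 in Control+SAMC. It was at 140.2, 139.7 and 142.6 CPM in the HFD libraries and at 164.2, 162.3 and 164.1 in HFD+SAMC. All 6 libraries with SAMC lay above all 6 without, at means of 158.6 ± 0.399 and 163.5 ± 1.05 against 139.6 ± 4.18 and 140.8 ± 1.54 (SD, n = 3 each). The SAMC effect averaged over diet was a log2 fold change of 0.20 ± 0.07 (SE), a 1.149-fold difference, with an unadjusted p of 0.0135 and an adjusted p of 0.267 by edgeR's quasi-likelihood test. DESeq2 gave the same log2 fold change of 0.20 with an adjusted p of 0.00775. So the call rests on the tool, and over all 18 alternatives the log2 fold change stayed between 0.19 and 0.21. Without scaling for composition, the SAMC libraries stayed above the others within each diet, at 144.8 to 164.1 against 109.6 to 139.6 CPM on the normal diet and 171.5 to 177.8 against 146.8 to 164.4 on the high fat diet, but the 6 no longer lay above all the other 6.

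The rest of the activators did not separate in that way. Psme2 was at 60.01, 61.6 and 58.8 CPM in Control and at 63.7, 64.9 and 65.4 in Control+SAMC, with no overlap, a log2 fold change of 0.11. On the high fat diet it was at 63.2, 59.4 and 61.0 CPM in HFD and at 57.9, 61.4 and 72.5 in HFD+SAMC, and these groups overlapped, with the highest value in the library that held muscle transcripts. Psme3, which encodes the nuclear PA28 gamma ring, was at 52.1, 33.7 and 47.1 CPM in Control and at 45.7, 50.3 and 54.0 in Control+SAMC, which overlapped. It was at 42.6, 41.4 and 45.3 CPM in HFD and at 49.1, 48.9 and 53.3 in HFD+SAMC, which did not overlap, a log2 fold change of 0.23. Psme4 encodes PA200, a large nuclear activator known from testis and DNA repair. It was at 144.8, 129.4 and 97.8 CPM in Control and at 195.8, 139.4 and 174.3 in Control+SAMC, a log2 fold change of 0.45 ± 0.18 (SE; edgeR unadjusted p = 0.025, adjusted p = 0.428), and Control replicate 1 lay above Control+SAMC replicate 2. Psme4 was at 144.7, 113.6 and 147.4 CPM in HFD and at 152.0, 131.2 and 130.5 in HFD+SAMC, which overlapped.

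**Figure D3:**
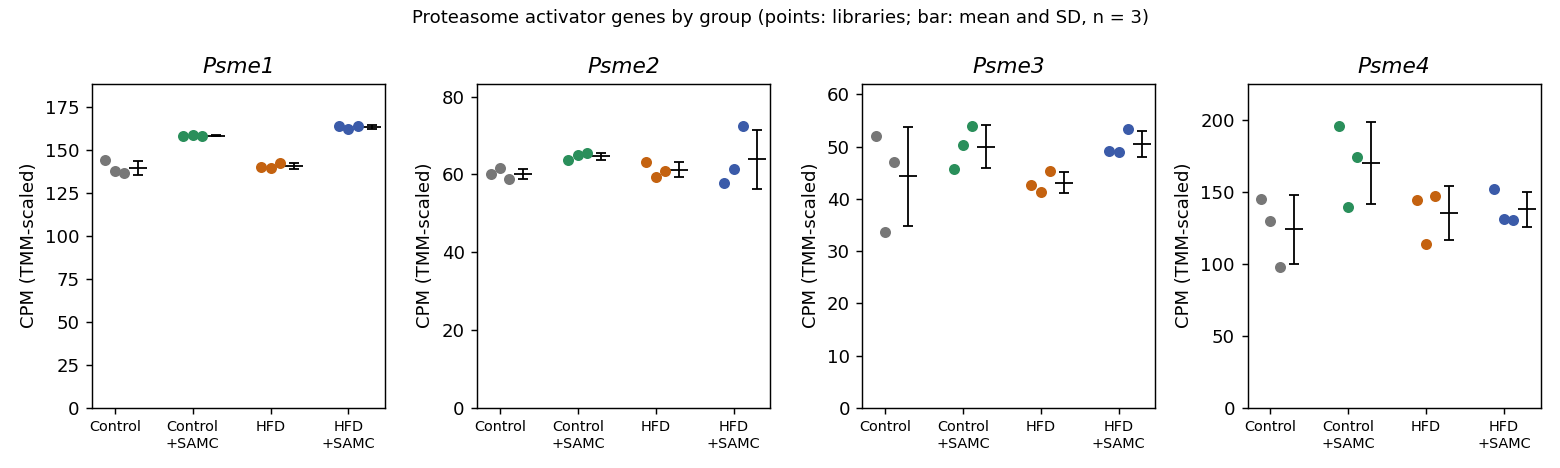
CPM of Psme1, Psme2, Psme3 and Psme4 in each library by group (points), with the mean and SD of 3 libraries beside them. Every SAMC library of Psme1 lies at 158.3 or above and every other library at 144.4 or below, while the groups of Psme4 spread over 97.8 to 195.8.

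The promoters of the PA28 pair are shown because the genes are partners, lie close together on chromosome 15 and differ in the motif searched. In the RefSeq table of promoters (build GRCr8, 250 bases before to 50 after the start) 39 of 44 members were matched by gene ID. Psma7, Psmb11, Psmd6, Psmd12 and Psmd14 were not matched. The core of the interferon-stimulated response element was searched as GAAA, any 2 bases and GAAA again, on both strands. The windows below are chr15:33038851-33038970 (plus strand) for Psme1, chr15:33052752-33052871 (minus strand) for Psme2 and chr19:50743293-50743412 (minus strand) for the immunoproteasome gene Psmb10. Each holds the 120 bases before the start, 5′ to 3′ in the direction of the gene, and capitals mark the motif.
Psme1: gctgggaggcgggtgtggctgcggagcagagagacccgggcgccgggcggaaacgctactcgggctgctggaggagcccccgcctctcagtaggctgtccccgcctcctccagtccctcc
Psme2: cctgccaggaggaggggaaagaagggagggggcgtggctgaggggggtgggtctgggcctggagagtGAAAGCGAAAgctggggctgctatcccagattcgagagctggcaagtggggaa
Psmb10: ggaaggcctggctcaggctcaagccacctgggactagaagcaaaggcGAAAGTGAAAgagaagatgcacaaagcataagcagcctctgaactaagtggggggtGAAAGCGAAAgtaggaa
The motif occurred in 6 of 39 member promoters (15.4%; Psma4, Psmb3, Psmb8, Psmb10, Psmd7 and Psme2, of which Psmb8 is on the minus strand in GRCr8 and on the plus strand in the deposited table) and in 1312 of 33469 promoters in all (3.92%). Psmb10 held it at 2 positions, and Psme1 did not hold these letters in its whole promoter. The member promoters had a median GC content of 56.0%, against 51.7% over all promoters.

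The catalytic subunits come in pairs, and in every library the constitutive gene of each pair was above its interferon-inducible counterpart on the RPKM scale. Psmb6 (caspase-like site) is paired with Psmb9, Psmb7 (trypsin-like site) with Psmb10 and Psmb5 (chymotrypsin-like site) with Psmb8. In RPKM, Psmb5 was at 93.9, 70.1 and 73.3 in Control, 103, 77.3 and 104 in Control+SAMC, 89.1, 103 and 91.6 in HFD and 104, 108 and 90.2 in HFD+SAMC. Psmb8 was at 41.9, 38.2 and 45.2 RPKM in Control, 49.1, 41.2 and 42.6 in Control+SAMC, 47.0, 65.7 and 37.1 in HFD and 38.9, 42.2 and 41.8 in HFD+SAMC. The 4 groups of each gene overlapped on this scale. Psmb6 was at 86.3, 59.1 and 57.6 RPKM in Control, 80.0, 53.4 and 75.6 in Control+SAMC, 84.9, 79.9 and 80.3 in HFD and 78.1, 80.6 and 79.1 in HFD+SAMC. Psmb9 was at 29.1, 38.1 and 30.7 RPKM in Control, 43.8, 32.7 and 30.2 in Control+SAMC, 49.1, 44.4 and 31.2 in HFD and 29.2, 40.0 and 45.8 in HFD+SAMC. Low RPKM of Psmb5 and Psmb6 in Control replicates 2 and 3 and Control+SAMC replicate 2 went with the highest albumin shares, at 21.8%, 16.3% and 13.2%. Psmb7 was at 91.1, 65.5 and 68.1 RPKM in Control, 97.8, 69.1 and 91.9 in Control+SAMC, 103, 112 and 94.1 in HFD and 98.9, 92.9 and 89.7 in HFD+SAMC. Psmb10 was at 62.3, 40.9 and 48.0 RPKM in Control, 58.3, 50.6 and 54.7 in Control+SAMC, 70.9, 57.2 and 47.7 in HFD and 50.8, 54.5 and 64.1 in HFD+SAMC.

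The summed ratio of the immunoproteasome genes to the constitutive genes was 0.572 ± 0.0706 in Control, 0.544 ± 0.0771 in Control+SAMC, 0.536 ± 0.0883 in HFD and 0.498 ± 0.0817 in HFD+SAMC (SD, n = 3 each), and the libraries of all 4 groups overlapped. A ratio within a library is free of depth. On the composition-scaled CPM scale the 3 immunoproteasome genes had no adjusted call. The largest difference of the 6 catalytic genes in the 4 comparisons of 2 groups was that of Psmb8 in HFD+SAMC against Control+SAMC, at 39.1, 42.2 and 43.5 CPM against 51.5, 49.2 and 47.7, with no overlap (log2 fold change -0.25 ± 0.14, SE; edgeR adjusted p = 0.57). A row described as beta type-8-like held 2985 reads beside 30775 for Psmb8, and how reads would be divided if the sequences are alike was not examined. The mean log2 level of the 3 immunoproteasome genes was above their own average in the 4 libraries with low fibrinogen transcripts (0.08 to 0.24) and between -0.31 and 0.11 in the other 8, and the part of that state in these values was not tested. Of 17 genes of the interferon response and class I antigen presentation, 0 were called by edgeR in the 4 comparisons of 2 groups. At an unadjusted p under 0.05 by edgeR, which 9.78% to 10.9% of all genes tested passed, there were 3 values, 2 of them in HFD against Control. The third was Irf1, an interferon-response transcription factor, at 34.7, 36.5 and 38.7 CPM in Control and 30.7, 16.2 and 25.5 in Control+SAMC, with no overlap (log2 fold change -0.60 ± 0.24, SE; edgeR adjusted p = 0.428). Irf1 went against most of its list in Control+SAMC against Control, where 12 of the 17 genes were above 0 (48.5% of all genes tested), with a median of 0.22. Tap1, which pumps peptides to class I molecules, had a log2 fold change of 0.24 in that comparison, with overlapping groups.

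**Figure D4:**
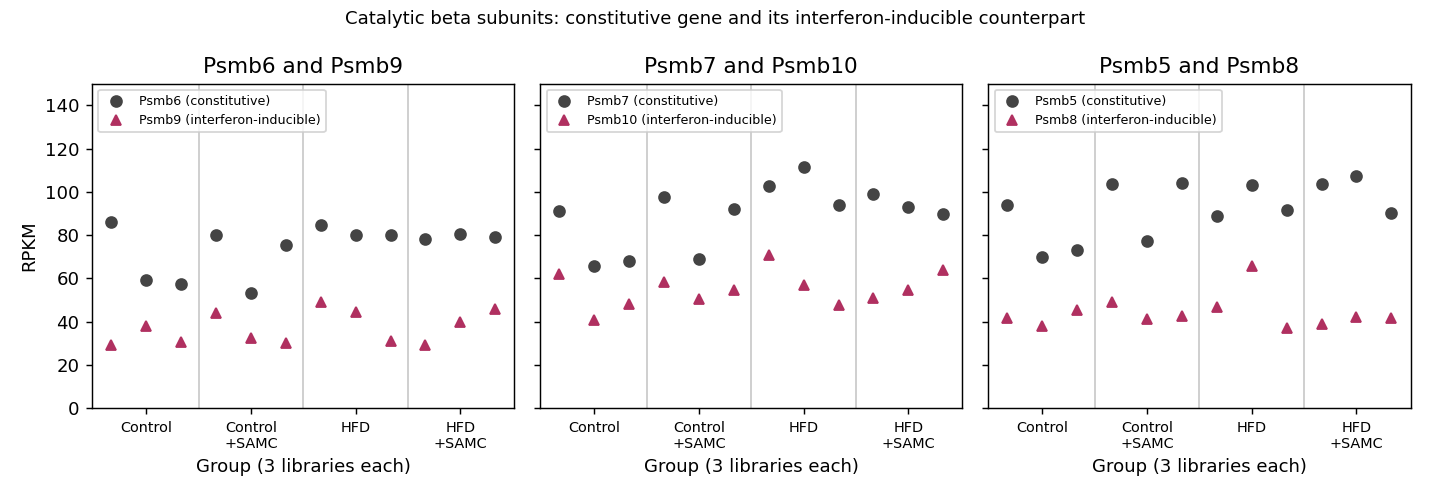
RPKM of each constitutive catalytic gene (circles) and its interferon-inducible counterpart (triangles) in the 12 libraries, 3 per group in replicate order. The circles lie above the triangles in all 12 libraries of each pair, and in the 4 groups the ratio of the summed pairs is 0.498 to 0.572.

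The remaining 20S and 19S genes varied together by library more than by group. Over 31 genes (the alpha ring, structural and constitutive beta genes and the cap), the mean log2 level relative to each gene's average was 0.17 in Control replicate 1, -0.12 in Control replicate 2 and -0.15 in Control replicate 3. It was 0.16, -0.24 and 0.08 in the Control+SAMC libraries, 0.10, 0.05 and 0.06 in HFD and -0.04, -0.03 and -0.04 in HFD+SAMC. Of the 31, 14 had their highest CPM in Control replicate 1, 8 in Control+SAMC replicate 1, and 16 had their lowest in Control+SAMC replicate 2. The spread within the normal-diet groups thus exceeded the distance between group means. How many of all genes tested were highest or lowest in these libraries was not counted, so the pattern may not be particular to the proteasome. The 3 lowest libraries were those with albumin shares of 13.2% to 21.8%, against 7.32% to 11.4% in the other 9, and the part of that difference was not tested. Kupffer cell and macrophage markers, summed over 13 genes, were at 581 CPM in Control replicate 1 and at 695 to 1110 in the others.

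**Figure D5:**
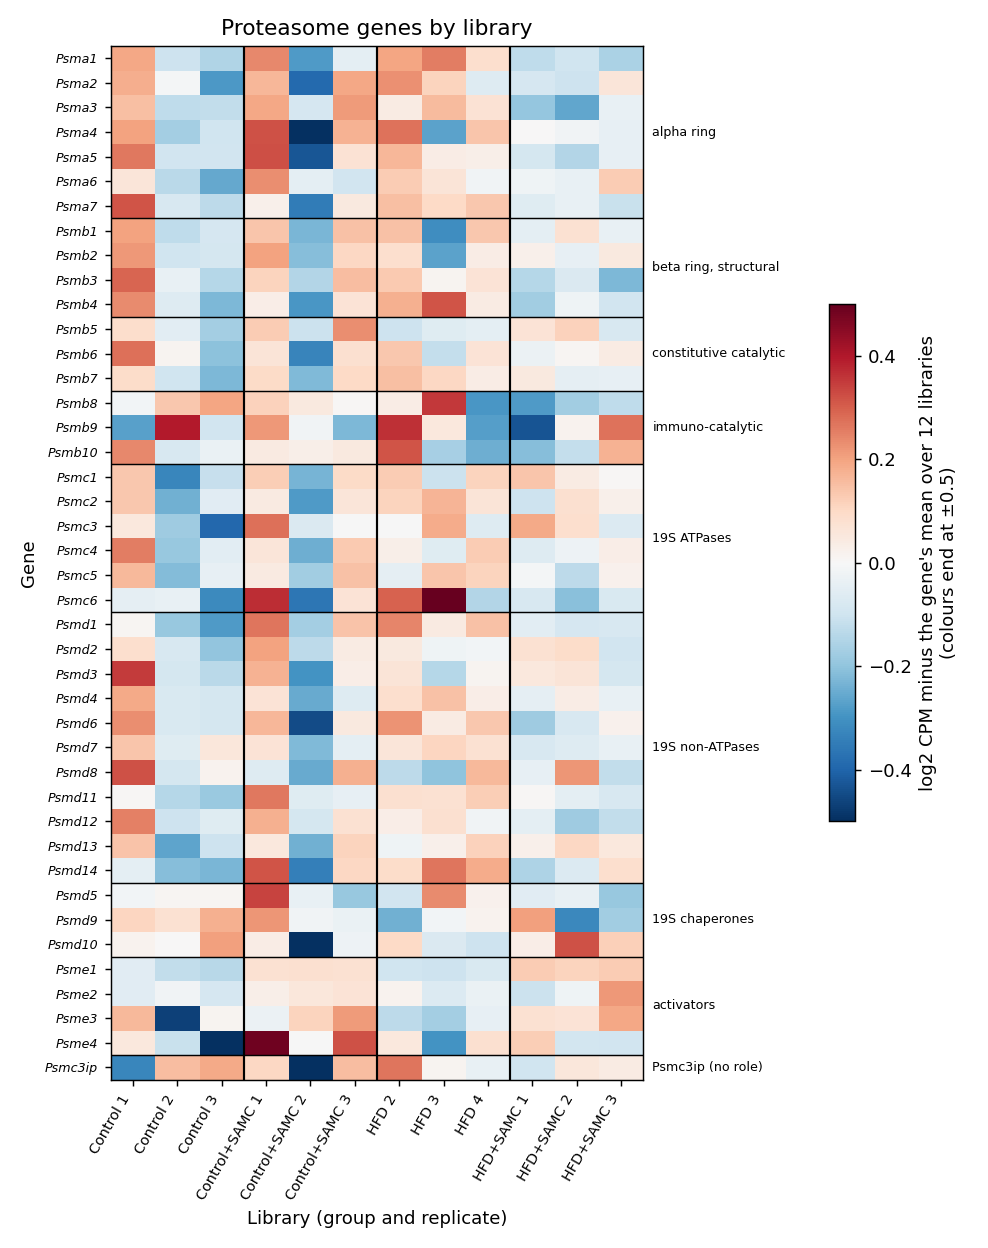
log2 CPM of 42 proteasome genes in 12 libraries minus each gene's mean, with genes in rows by role, libraries in columns by group and colours ending at 0.5 either way. Control replicate 1 and Control+SAMC replicate 1 are red and Control+SAMC replicate 2 blue for most 20S and 19S genes, and Psme1 is blue in the Control and HFD columns and red in both SAMC groups.

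In HFD against Control, 31 of 42 members had a fold change above 0, with a median of 0.06, against 49.3% of all genes tested. The libraries of 3 members lay wholly above those of Control (background 8.27%) and those of 1, the chaperone gene Psmd9, wholly below (background 6.44%). Psmd14 was at 28.2, 25.2 and 24.9 CPM in Control and at 31.1, 35.1 and 33.2 in HFD, a log2 fold change of 0.34 ± 0.15 (SE; edgeR unadjusted p = 0.0426, adjusted p = 0.45). Psmd1, the scaffold subunit of the cap, was at 154.9, 135.0 and 126.3 CPM in Control and at 182.3, 158.8 and 170.4 in HFD, a log2 fold change of 0.30 ± 0.14 (SE; edgeR adjusted p = 0.469). Psmd11, a subunit of the lid, was the other. All 6 cap ATPases and all 7 alpha ring genes tested were above 0, with medians of 0.15 and 0.12. The median of the 42 was 0.003 without Control replicate 3 and 0.16 without Control replicate 1, so it depended on single libraries. It was 0.02 without Control replicate 2, 0.04 without HFD replicate 2 and 0.02 without the 4 libraries with low fibrinogen transcripts. Markers of cell types leaned to one side in the same comparison, without a call. All 13 Kupffer cell and macrophage markers were above 0 (median 0.47, 0 called), with sums of 581 to 906 CPM in Control and 948 to 1110 in HFD. Of the 13, 7 had an unadjusted p under 0.05 by edgeR (background 10.7%). Of 9 T and NK cell markers tested, 8 were above 0, with sums of 31.3 to 45.4 CPM and 44.3 to 63.4, which overlapped. Most of each sum was Cd4, at 26.4, 35.3 and 35.9 CPM in Control and 50.6, 47.2 and 35.8 in HFD. Cd3e was at 0.438, 0.759 and 0.830 CPM in Control and at 0.295, 0.553 and 0.412 in HFD. All 8 hepatocyte markers were below 0 (median -0.57), with sums of 158814 to 364124 CPM and 126331 to 168474, which overlapped. No marker of these 3 lists was at 0 in all libraries, and their part in the members' values was not tested.

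In HFD+SAMC against HFD, 29 of 42 members were below 0 (7883 of 15916 genes tested), with a median of -0.09. The libraries of 12 members lay wholly below those of HFD (28.6%; background 9.41%) and those of 2, Psme1 and Psme3, wholly above (background 9.4%). The 12 were Psma1, Psma3, Psma5, Psma7, Psmb3, Psmb4, Psmd1, Psmd6, Psmd7, Psmd11, Psmd12 and Psmd14. Psma1, an alpha ring subunit, was at 95.4, 99.4 and 88.3 CPM in HFD and at 76.1, 77.6 and 74.5 in HFD+SAMC, a log2 fold change of -0.31 ± 0.14 (SE; edgeR unadjusted p = 0.0504, adjusted p = 0.471). Psma7 was at 119.99, 115.8 and 118.7 CPM in HFD and at 103.8, 105.4 and 100.1 in HFD+SAMC. Psmb4, a structural beta subunit, was at 146.3, 160.8 and 133.2 CPM in HFD and at 114.5, 127.6 and 120.9 in HFD+SAMC. The 12 were measured in the same 6 libraries, and 0 of them passed the adjusted test. The Control libraries of Psma1, at 94.98, 77.4 and 74.9 CPM, overlapped both groups. Without the 4 libraries with low fibrinogen transcripts, which leaves 1 HFD library, 19 members lay below (background 29.2%) and the median was -0.06. Markers of immune cells were also lower in this comparison, with 12 of 13 Kupffer cell and macrophage markers below 0 (5 wholly below, sums of 791 to 940 CPM in HFD+SAMC) and 9 of 9 T and NK cell markers below 0 (median -0.66, 5 wholly below, sums of 47.1 to 49.5 CPM). None of them was called, and 5 of 8 hepatocyte markers were above 0, with sums of 140484 to 166764 CPM. The part of these markers in the members' values was not tested.

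In Control+SAMC against Control, 2 members, Psme1 and Psme2, lay wholly above (background 7.03%) and 0 wholly below (background 6.51%). In HFD+SAMC against Control+SAMC, 1 lay wholly above (Psme1; background 9.27%) and 1 wholly below (Psmb8; background 8.54%), with a median of -0.03. That median depended on single libraries, at -0.13 without Control+SAMC replicate 2, 0.01 without Control+SAMC replicate 3, 0.04 without Control+SAMC replicate 1, -0.04 without HFD+SAMC replicate 3 and 0.04 without the 4 libraries with low fibrinogen transcripts. Psma3, an alpha ring subunit (57778 reads, beside 1155 in a row described as alpha type-3-like), was at 101.8, 84.0 and 103.3 CPM in Control+SAMC and at 77.8, 74.4 and 86.8 in HFD+SAMC, a log2 fold change of -0.27 ± 0.13 (SE; edgeR adjusted p = 0.459). For the diet effect over all libraries, 0 members lay wholly above (background 0.578%) and 0 wholly below (background 0.503%), and the members with the smallest p were Psmd9, at a log2 fold change of -0.17 ± 0.10 (SE), and Psmb8, at -0.15 ± 0.10. For the SAMC effect, 1 lay wholly above (Psme1; background 0.572%) and 0 wholly below (background 0.383%), and the second smallest p was that of Psme3, at 0.20 ± 0.10.

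The interaction of diet and SAMC, which compares the SAMC effect on the high fat diet with that on the normal diet, was below 0 for 34 of 42 members, with a median of -0.10 against 0.02 over all genes. Psmd1 had the smallest p, at -0.46 ± 0.19 (SE; edgeR unadjusted p = 0.0336, adjusted p = 0.633), and Psma3 followed at -0.39 ± 0.18 (adjusted p = 0.668). Psmd1 was at 136.6 to 185.1 CPM in Control+SAMC and at 145.0 to 148.4 in HFD+SAMC. The median was -0.20 without Control replicate 1, -0.20 without Control+SAMC replicate 2, -0.01 without Control+SAMC replicate 1, -0.06 without Control+SAMC replicate 3 and -0.06 without HFD replicate 2. It became 0.03 without the 4 libraries with low fibrinogen transcripts. For 1 gene (RGD1562465) the RPKM imply a gene length of 4432 bp in the 6 libraries of HFD and Control+SAMC and of 3377 bp in the other 6. A processing difference between these 2 sets of libraries and the interaction cannot be told apart. The same holds for all 4 comparisons of 2 groups, since each sets a group of one set against a group of the other. The averaged diet and SAMC effects have a group of each set on both sides.

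The core of the antioxidant response element, the site of Nrf1 and Nrf2, was searched as TGACNNNGC on both strands. It occurred in 8 of 39 member promoters (20.5%; Psma3, Psmb2, Psmb5, Psmb6, Psmd1, Psmd3, Psmd9 and Psme4) and in 4038 of 33469 in all (12.1%). The promoters of Psmb5, Psme4 and Psmd1 are shown, a catalytic gene and the motif-holding members with the smallest p for SAMC on the normal diet and for the interaction. Windows are chr15:32047380-32047499 (minus strand) for Psmb5, chr14:108706523-108706642 (plus strand) for Psme4 and chr9:94157751-94157870 (plus strand) for Psmd1 (GRCr8). Those of Psmb5 and Psme4 end at the base before the start and that of Psmd1 ends 101 bases before it, and capitals mark the motif, which in Psme4 lies on the other strand.
Psmb5: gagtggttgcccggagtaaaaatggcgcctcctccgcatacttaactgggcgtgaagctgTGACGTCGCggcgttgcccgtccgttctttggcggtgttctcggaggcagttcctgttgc
Psme4: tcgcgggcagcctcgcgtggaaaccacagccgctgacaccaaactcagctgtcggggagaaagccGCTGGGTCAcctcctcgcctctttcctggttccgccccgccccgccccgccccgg
Psmd1: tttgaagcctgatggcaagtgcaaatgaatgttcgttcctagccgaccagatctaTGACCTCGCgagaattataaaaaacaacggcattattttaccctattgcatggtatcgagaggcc
Psmb5 had a log2 fold change of 0.13 in Control+SAMC against Control, Psme4 of 0.45 and Psmd1 of 0.24. In that comparison the other members with the motif had 0.14 (Psma3), 0.02 (Psmb2), -0.09 (Psmb6), -0.08 (Psmd3) and -0.06 (Psmd9). The 8 genes thus lay on both sides of 0, and 0 of them were called by edgeR (background 0.119%). A match of letters is a description of the sequence and no evidence of binding.

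The genes around the particle were also read. Of 12 partners and assembly factors, 14 ubiquitin and shuttle genes and 7 regulators of subunit transcription that were tested, 0 were called by edgeR in the 4 comparisons of 2 groups. At an unadjusted p under 0.05 there were 2 values of partners, 3 of ubiquitin genes and 0 of regulators, where 9.78% to 10.9% of all genes tested pass in these comparisons. Adrm1, a ubiquitin receptor of the cap, had a log2 fold change of 0.05 in Control+SAMC against Control and -0.12 in HFD+SAMC against HFD. Pomp, which matures the core, had 0.12 and -0.22. Ubb, a polyubiquitin gene, was at 505.5, 542.2 and 432.1 CPM in Control and at 375.5, 323.7 and 290.8 in Control+SAMC, a log2 fold change of -0.58 ± 0.19 (SE; edgeR adjusted p = 0.34), with no overlap. Ubb was at 444.8, 330.2 and 545.1 CPM in HFD and at 566.9, 535.3 and 627.8 in HFD+SAMC, which overlapped (log2 fold change 0.39, edgeR adjusted p = 0.484). The HFD+SAMC libraries lay above all Control+SAMC libraries (log2 fold change 0.81, edgeR adjusted p = 0.16).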

How the data were processed

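Total RNA of rat liver was depleted of ribosomal RNA and sequenced as 150 bp paired reads. Per the labels' protocols, the authors aligned reads with HISAT2 and deposited HTSeq read counts per gene, and the deposited table also gives RPKM. Trimmomatic 0.36 is named in the submitters' processing notes. No label or header names the genome build or the strand setting. RPKM matched counts over listed length within 1e-06 for all genes but 1.

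Counts were tested with edgeR 4.0.16 (R 4.3.3; filterByExpr, TMM scaling, quasi-likelihood F test, 1 fit over 12 libraries in 4 groups, 8 residual degrees of freedom, 7 contrasts, Benjamini-Hochberg, threshold 0.05); DESeq2 1.42.0 and other scalings were alternatives. CPM are TMM-scaled; RPKM are as deposited. A member is apart when no library of one group overlaps the other. The script was also run on counts simulated with the same spread for every gene and no shift shared within a library. Those settings differ from these libraries, so that run does not show how sensitive the tests were here. The labels do not say whether libraries came from separate rats, so the p-values reflect the spread among these 12 libraries, part of which may be technical.

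Named members: any called; catalytic pairs and activators; the 2 smallest p per contrast; highest and lowest RPKM. Members apart, motif holders and pathway genes were named after their values were seen. Members and lists were chosen with earlier results of these data known. Interval precision covers counting and replicate error at 95%. Of 36 rows described as proteasome-like copies, 31 held under 50 reads. One gene of the Nrf2 readout list is not reported here by name.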

Additional observations from a re-analysis of the deposited data

How the results depend on the processing

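The counts of members called stayed at 0 in all 7 comparisons under relative log expression and upper quartile factors, no filter on low counts and with each library left out in turn, and in the 4 comparisons of 2 groups also in fits of those groups alone; DESeq2 called 1 member (Psme1) in the SAMC effect. It called 308 genes in all for HFD against Control, 246 for HFD+SAMC against HFD, 220 for Control+SAMC against Control, 272 for HFD+SAMC against Control+SAMC, 538 for the diet effect, 436 for the SAMC effect and 128 for the interaction, against 23, 8, 19, 10, 67, 35 and 23 by edgeR; the cause was not tested. Same-numbered libraries did not deviate together (2 of 15 pairs correlated above 0.1, range -0.22 to 0.25, and 1 of 12 libraries correlated best with its own number). These correlations gave no sign of pairing by number, but they could miss a shared effect weaker than the other differences among libraries. The fit with the replicate block called 0 members in every comparison, with medians of 0.13 for HFD against Control, -0.14 for HFD+SAMC against HFD and -0.16 for the interaction. Without the 4 libraries with low fibrinogen transcripts, chosen after seeing the data, the interaction median was 0.0305 and 19 members lay wholly below in HFD+SAMC against HFD, where 1 HFD library was left; the medians for Control+SAMC against Control and for the SAMC effect were -0.08 and -0.08. With 1 library left out, the median of members lay between -0.20 and -0.01 for the interaction and kept its sign for HFD+SAMC against HFD. Psma8 and Psmb11 lay under the filter, so no difference in them was detectable at this depth.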
